A study of Sus scrofa with 60 samples.

Results

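ASNS and ALDH18A1 encode 2 enzymes by which a cell makes amino acids for itself, asparagine in the case of ASNS and the precursor of proline in the case of ALDH18A1. Every probe-set whose only gene symbol in the array annotation was ASNS or ALDH18A1 was taken, which gave 1 probe-set for each gene, 2 of 23999 probe-sets and 2 of 6765 named genes. The pair was chosen with its levels over the stages in view, so these levels and the genes that varied with the pair are described here without a test. Liver mRNA was measured on Affymetrix porcine arrays in 60 German Landrace pigs, 1 array per animal. All were offspring of gilts on the adequate protein (AP) gestation diet, with 15 fetuses at 94 days post conceptionem (dpc), 15 newborn piglets at 1 day post natum (dpn), 14 piglets at 28 dpn and 16 pigs at 188 dpn. The stages are compared in order as period I (94 dpc to 1 dpn), period II (1 dpn to 28 dpn) and period III (28 dpn to 188 dpn), and a fitted difference is always the later minus the earlier stage. By the study's methods the fetuses came from an experiment of their own, at 94 dpc and 1 dpn a light and a heavy sib were picked from each of 8 litters, and feed was withheld overnight from those of 28 and 188 dpn before they were killed. The stages therefore differ in feeding and handling as well as in age, and these cannot be told apart.

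Asparagine synthetase (ASNS) transfers the amide nitrogen of glutamine to aspartate and yields asparagine and glutamate. ALDH18A1 is delta-1-pyrroline-5-carboxylate synthase, a mitochondrial enzyme that activates and reduces glutamate, and its product is reduced further to proline by the PYCR enzymes or transaminated to ornithine by OAT. ASNS is a classical target of the amino acid response, in which uncharged tRNA activates the kinase GCN2, the initiation factor eIF2 is phosphorylated and the transcription factor ATF4 is made. The same factor drives genes of serine synthesis, amino acid uptake and tRNA charging, and its own output is controlled largely at translation, which arrays do not read.

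ASNS was high in fetal and newborn liver and far lower from 28 dpn on. The ASNS intensity ran from 6010.5 to 14520 with a median of 9601 in fetuses, and from 4665 to 12366 with a median of 7157 in newborns. It ran from 256 to 1501 with a median of 604 at 28 dpn, and from 185 to 344 with a median of 239 at 188 dpn. Fetuses and newborns overlapped over most of their range, every 28 dpn piglet lay below every newborn, and 10 of the 16 pigs of 188 dpn lay below the lowest animal of 28 dpn. On the log2(intensity + 16) scale, used for every level below, the means were 13.18 ± 0.34 (SD, n = 15) in fetuses, 12.88 ± 0.47 (n = 15) in newborns, 9.17 ± 0.72 (n = 14) at 28 dpn and 8.04 ± 0.24 (n = 16) at 188 dpn.

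ALDH18A1 followed the same order of stages with a later drop. Its intensity ran from 6288 to 8601 with a median of 7769 in fetuses, and from 4069.9 to 7925 with a median of 5710.5 in newborns. It ran from 1017 to 3988 with a median of 1637 at 28 dpn, and from 223 to 498 with a median of 314 at 188 dpn. The highest 28 dpn piglet (log2 level 11.97) lay just below the lowest newborn (12.00), and every pig of 188 dpn lay clearly below every piglet of 28 dpn. The log2 means were 12.90 ± 0.15 (SD, n = 15), 12.48 ± 0.28 (n = 15), 10.76 ± 0.57 (n = 14) and 8.37 ± 0.29 (n = 16) in the order of the stages. In both genes the stage means differed by more than either SD in periods II and III. In period I the ASNS difference of -0.31 was smaller than either SD, and the ALDH18A1 difference of -0.42 larger. Both probe-sets stayed above background in all animals, since the highest mean of the Tag control probe-sets, for which pig liver has no target, was between 5.73 and 6.29 at every stage. In tissue RNA fewer cells of a type and less RNA per cell cannot be told apart.

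**Figure D1:**
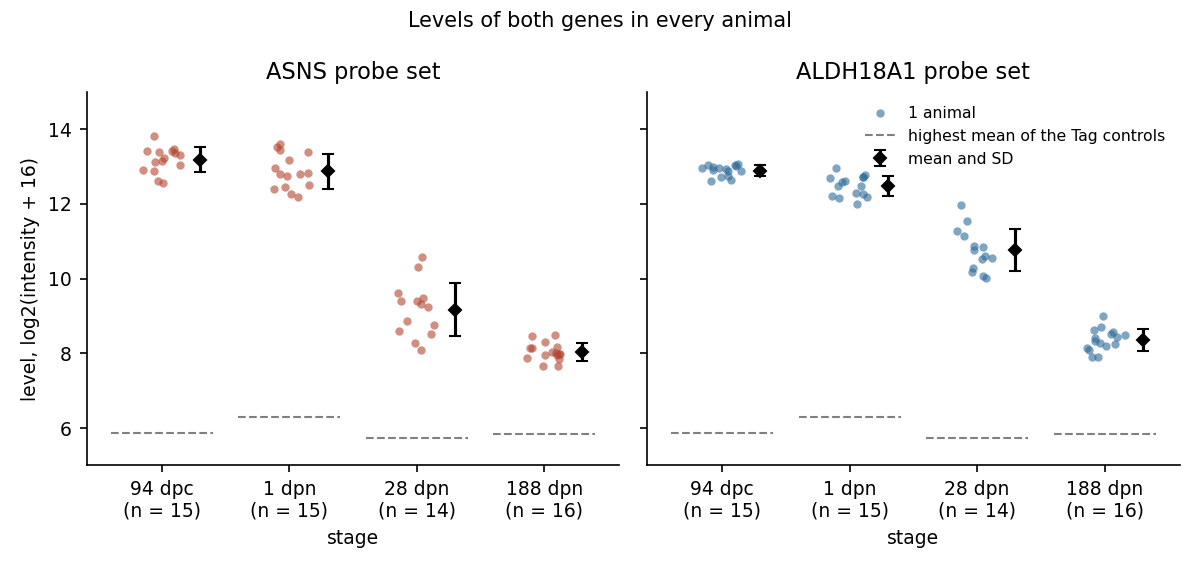
Levels of the ASNS probe-set and the ALDH18A1 probe-set as log2(intensity + 16) on the vertical axis, by stage on the horizontal axis. Each point is 1 animal, the diamond and bar are the mean and SD, and the dashed line is the highest mean of the Tag controls at that stage. ASNS stands near 13 before and just after birth and between 8.09 and 10.57 at 28 dpn, while ALDH18A1 at 28 dpn lies between 10.01 and 11.97 and reaches its low level at 188 dpn.

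Over the whole course from 94 dpc to 188 dpn the log2 difference was -5.14 (35.3-fold) for ASNS and -4.53 (23.1-fold) for ALDH18A1. Of 13844 probe-sets above the array median in some stage, 25 were lower by at least as much as ASNS and 38 by at least as much as ALDH18A1, each count including the gene itself, and the median difference over all of them was -0.35. The pair thus ended with similar losses and took them at different steps. Period II held 72.1% of the ASNS difference and 37.8% of that of ALDH18A1, and period III held 22.0% and 52.9%.

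In period I the fitted log2 difference was -0.31 ± 0.14 (SE; 1.24-fold) for ASNS and -0.42 ± 0.09 (1.34-fold) for ALDH18A1, against a median of -0.15 over all 12771 probe-sets tested. In period II it was -3.71 ± 0.21 (13.0-fold) for ASNS and -1.71 ± 0.16 (3.28-fold) for ALDH18A1, with a median of -0.10 over 12976 probe-sets. Here 12 probe-sets were lower by as much as ASNS and 374 by as much as ALDH18A1. In period III the order of the genes turned, with -1.13 ± 0.18 (2.19-fold) for ASNS and -2.40 ± 0.16 (5.26-fold) for ALDH18A1, and 211 and 9 of 12568 probe-sets were lower by as much. No animal of the later stage reached the earlier one for either gene in period II, and for ALDH18A1 alone in period III. Of all probe-sets 5.53% were lower in this way, without overlap, in period I, 6.83% in period II and 0.756% in period III. The rule used these levels, so nothing is read from these shares.

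Taken animal by animal, ASNS minus ALDH18A1 was 0.29 ± 0.32 (SD) on the log2 scale in fetuses and 0.40 ± 0.39 in newborns. It was -1.59 ± 0.82 at 28 dpn, with a range from -2.48 to 0.28, and -0.33 ± 0.43 at 188 dpn. As each probe-set has its own brightness, only the shift of this value between stages has a meaning, and it was displaced at 28 dpn from the other stages. The actin controls give a measure of RNA integrity, since probe-sets at the 3' and 5' ends of actin read the same transcript, and their log2 ratio averaged 2.29, 1.76, 3.54 and 4.01 in the order of the stages. The highest ratio of a newborn was 2.23 and the lowest at 28 dpn was 2.85. In period II the ratio is thus nearly tied to the stage. A call lost there with the ratio as a covariate can come from lost precision as well as from a smaller difference. With this ratio as a covariate the period II difference was -3.37 for ASNS and -2.08 for ALDH18A1, and the period III difference was -1.04 and -2.43. Under median centring, which moved the median of all probe-sets in period II from -0.10 to 0.21, the ASNS and ALDH18A1 differences in period II were -3.39 and -1.40, and both genes kept their sign in each period under every scaling tried.

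The spread between animals was itself stage dependent. For ASNS the highest animal exceeded the lowest 2.41-fold in fetuses, 2.64-fold in newborns, 5.58-fold at 28 dpn and 1.79-fold at 188 dpn. For ALDH18A1 these folds were 1.37, 1.94, 3.88 and 2.15. At 28 dpn the SD of ASNS was larger than that of 97.7% of the 2482 probe-sets within 0.5 log2 units of its level, and the SD of ALDH18A1 larger than that of 94.8% of 1200 such probe-sets. At 188 dpn, when ASNS was near its lowest, its SD exceeded that of only 10.5% of the probe-sets of like level. In fetuses the SD of ALDH18A1 exceeded that of 5.14% of all probe-sets and of 25.0% of the 284 of like level.

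At the upper end of this spread the 28 dpn piglets were different animals for the 2 genes, and at the lower end some were shared. The highest ASNS intensities at 28 dpn were 1501 and 1254, in piglets whose ALDH18A1 intensities were 1236 and 1833. The highest ALDH18A1 intensities were 3988 and 2995, in piglets with an ASNS intensity of 763 and 618. The lowest ASNS intensity of the stage, 256, came with an ALDH18A1 intensity of 1500.0, close to the stage median. The next piglet, at an ASNS intensity of 292, had an ALDH18A1 intensity of 1149.9, and the lowest ALDH18A1 intensity, 1017, came with an ASNS intensity of 374.

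Among animals of the same stage ASNS and ALDH18A1 went together only loosely. Pearson's r of their log2 levels was 0.32 (Spearman's rho 0.38, n = 15) in fetuses, 0.55 (rho 0.53, n = 15) in newborns, 0.21 (rho 0.23, n = 14) at 28 dpn and -0.28 (rho -0.07, n = 16) at 188 dpn. Pooled over the 60 animals as deviations from the stage means, r was 0.22 and rho was 0.25. Without the 2 animals of each stage farthest from its median ASNS level, r was 0.18, 0.34, 0.43 and -0.25 in the order of the stages. Animals of a stage share litters, and all values of an animal share its array, so these are descriptions and carry no p-value.

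The genes of amino acid synthesis around the pair were listed next to it. The list also holds enzymes that serve breakdown or work both ways, such as ALDH4A1, OAT and the transaminases. Of the 18 listed genes on the array with a single symbol, 17 passed the filter on low values, and these are called synthesis genes below. Adjusted p-values for these and all further genes come from limma with Benjamini-Hochberg adjustment over all probe-sets of a period, and a gene was called at a value below 0.05. In period I 5 of the 17 rose and 7 fell (7 and 6 under median centring), while 23.9% of all probe-sets rose and 41.1% fell, and the list's median difference was 0.03 (-0.12 under quantile normalisation) against -0.15 for all. In period II 4 rose and 9 fell (6 and 6 under median centring), while 28.5% of all probe-sets rose and 39.0% fell, with a median of -0.38 against -0.10. In period III 8 rose and 5 fell, while 15.5% of all rose and 24.1% fell, with a median of 0.20 against -0.04. The rises of period III were those of OAT, ALDH4A1, PSAT1, SHMT1, GOT1, GOT2, GPT and CTH, among them enzymes that serve breakdown or work both ways. PYCR1, PSPH and, in period III only just (adjusted p = 0.0494), MTHFD1L fell in each of the 3 periods, as did 3.31% of the 11414 probe-sets tested throughout.

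PYCR1, which completes proline from the product of ALDH18A1, was lower at each stage than at the one before. Its log2 levels ran from 9.76 to 10.78 (median 10.51) in fetuses, 8.65 to 10.37 (median 9.45) in newborns, 8.38 to 9.42 (median 9.04) at 28 dpn and 5.46 to 8.93 (median 7.81) at 188 dpn. Neighbouring stages of PYCR1 overlapped, and its 188 dpn pigs were the most spread. PYCR1 fell by 0.91 ± 0.14 (SE; adjusted p = 1.27e-06) in period I, 0.66 ± 0.15 (adjusted p = 0.000401) in period II and 1.21 ± 0.22 (adjusted p = 4.35e-05) in period III. With the actin ratio as a covariate the period II difference was -0.81 and was not called (adjusted p = 0.14). PYCR3, a cytosolic isoform, fell by 0.46 in period II, a call lost under 3 alternatives (adjusted p between 0.078 and 0.78), and was not called in the other periods. OAT, which joins the same intermediate to ornithine, went the other way, with a rise of 1.44 ± 0.25 (adjusted p = 6.60e-06) in period I and of 0.95 ± 0.18 (adjusted p = 6.43e-05) in period III. ALDH4A1, which oxidises the intermediate back to glutamate, rose by 0.63 in period I and by 0.61 in period III.

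The serine branch did not share a single course. PHGDH, which commits glycolytic carbon to serine, ran from 12.41 to 13.06 in fetuses, 10.72 to 12.91 in newborns, 9.61 to 11.89 at 28 dpn and 9.67 to 11.38 at 188 dpn. It fell by 0.55 ± 0.17 (adjusted p = 0.00525) in period I, fell by 1.63 ± 0.23 (adjusted p = 2.92e-07) in period II, and stood at 0.20 ± 0.19 (adjusted p = 0.434) in period III. The period II step of PHGDH was not called with the actin ratio as a covariate (-0.65, adjusted p = 0.43). PSAT1, the transaminase of the next step, fell by 1.55 ± 0.16 (adjusted p = 5.63e-10) in period I without overlap and rose by 0.70 ± 0.17 and 0.68 ± 0.08 afterwards. PSPH, the phosphatase of the last step, came nearest to the pair in size, with falls of 1.08 ± 0.15, 1.56 ± 0.20 and 2.07 ± 0.20, the last at adjusted p = 2.49e-09. Its median log2 level was 12.35, 11.37, 9.78 and 7.59 in the order of the stages. SHMT1, which interconverts serine and glycine, was opposed to the pair and rose by 1.52 ± 0.14 (adjusted p = 7.25e-11) in period II and 1.13 ± 0.10 (adjusted p = 3.00e-10) in period III, both without overlap, though another SHMT1 probe-set was called in the opposite direction in period II.

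GOT1, the cytosolic transaminase that makes aspartate, rose by 1.38 ± 0.13 (adjusted p = 5.20e-11) in period I without overlap and by 1.16 ± 0.15 (adjusted p = 3.33e-07) in period III, and its fall of 0.38 in period II was lost under 4 alternatives (adjusted p between 0.058 and 0.85). GOT2, the mitochondrial form, rose by 0.31 in period I, fell by 0.48 in period II and rose by 0.38 in period III. Its period II call was lost under median centring (-0.16, adjusted p = 0.14) and with the actin ratio as a covariate (-0.51, adjusted p = 0.097). GLUL, which makes glutamine, rose by 1.05 ± 0.20 (adjusted p = 2.89e-05) in period II, the period of the large ASNS difference, and fell by 1.16 ± 0.20 (adjusted p = 2.44e-05) in period III. A further GLUL probe-set was called in the opposite direction in period II, and with the actin ratio as a covariate the rise was not called (adjusted p = 0.41). ASRGL1, which can hydrolyse asparagine, fell by 0.68 in period II, a call lost with the actin ratio as a covariate (adjusted p = 0.65). Among mitochondrial folate enzymes MTHFD1L fell by 1.43 ± 0.24, 1.53 ± 0.32 and 0.66 ± 0.27, though it took the opposite sign in period II with the actin ratio as a covariate (0.38, adjusted p = 0.76). Its mean level of 6.01 at 188 dpn was close to the highest Tag control mean there (5.84), its lowest animals at 28 and 188 dpn (5.02 and 4.90) were below the control level, and its period III call was lost under 5 alternatives (adjusted p between 0.072 and 0.24). MTHFD2 fell by 0.52 ± 0.13 (adjusted p = 0.00107) in period I and 0.81 ± 0.15 (adjusted p = 7.19e-05) in period III. In period II it stood at 0.04 ± 0.14 (adjusted p = 0.787), where quantile normalisation and median centring called a rise of 0.36 (adjusted p = 0.026 and 0.027). The means of MTHFD2 at 1 and 188 dpn (7.14 and 6.38) and of MTHFD1L at 28 and 188 dpn (6.67 and 6.01) lay below the array median of the stage. Such a gene can pass the filter through its higher stage alone. The MTHFD2 differences and the MTHFD1L falls of periods II and III are therefore not read further.

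**Figure D2:**
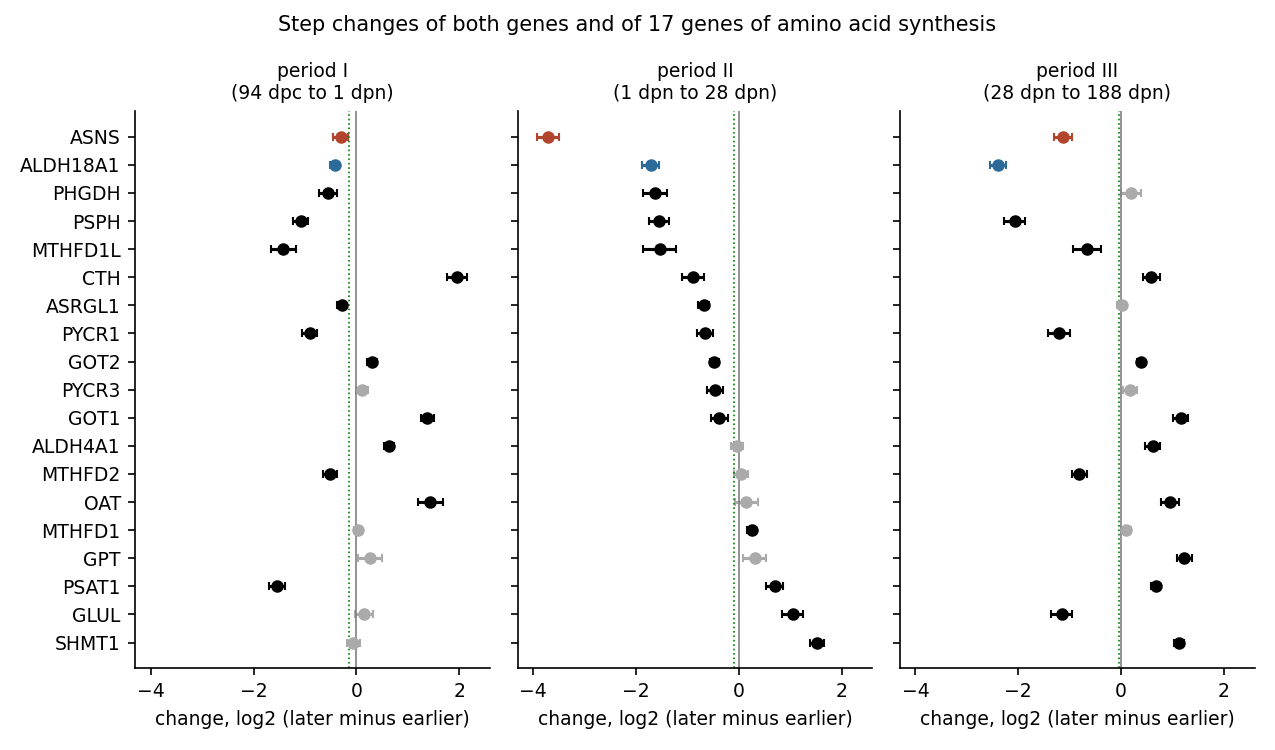
Log2 difference, later minus earlier stage, on the horizontal axis for ASNS (red), ALDH18A1 (blue) and 17 genes of amino acid synthesis in periods I, II and III, with SE bars. Black points were called by limma, grey ones were not, and the dotted line is the median of all probe-sets. ASNS at -3.71 in period II and ALDH18A1 at -2.40 in period III lie beyond all 17 genes, of which PSPH at -2.07 in period III comes nearest.

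The list of the amino acid response, the route by which ASNS is known to be driven, held regulators, an inhibitor and further targets. Its genes were called in both directions in each period. Of the 30 genes listed, 15 were on the array with a single symbol, and GCN2 (EIF2AK4), TRIB3, CHAC1 and SESN2 were not. The counts therefore describe the measured genes and not the response as a whole. Of 15 such genes tested, 5 rose and 7 fell in period I, 4 rose and 5 fell in period II (7 and 4 under median centring), and 2 rose and 6 fell in period III. Of all probe-sets 23.9% rose and 41.1% fell in period I, 28.5% and 39.0% in period II, and 15.5% and 24.1% in period III. The median differences of the response genes were -0.13, 0.00 and -0.16, against -0.15, -0.10 and -0.04 for all probe-sets. ATF4, the central factor, had log2 levels from 12.32 to 13.03 in fetuses, 11.96 to 13.24 in newborns, 11.72 to 12.85 at 28 dpn and 11.79 to 12.63 at 188 dpn. All 4 stages of ATF4 overlapped. Its difference was -0.28 ± 0.12 (adjusted p = 0.0326) in period I, -0.16 ± 0.13 (adjusted p = 0.284) in period II and -0.16 ± 0.10 (adjusted p = 0.208) in period III. The period I call of ATF4 was lost under 4 alternatives (adjusted p between 0.06 and 0.40), and in period II ATF4 was called as a fall under quantile normalisation (-0.33, adjusted p = 0.037) and stood at 0.15 under median centring (adjusted p = 0.31).

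DDIT3, a transcription factor induced by ATF4, fell by 0.85 ± 0.22 (adjusted p = 0.00145) in period I, rose by 0.80 ± 0.24 (adjusted p = 0.00386) in period II and fell by 0.35 ± 0.13 (adjusted p = 0.0267) in period III, the last a call lost under 5 alternatives (adjusted p between 0.056 and 0.16). Its period II step was thus opposite in sign to that of ASNS. ATF3, a stress-induced partner factor, fell by 1.13 ± 0.35 (adjusted p = 0.00562) in period I and stood at 0.67 ± 0.32 (adjusted p = 0.0607) and 0.09 ± 0.17 (adjusted p = 0.689) later. In period II ATF3 was called as a rise under quantile normalisation (0.94, adjusted p = 0.01), median centring (0.99, adjusted p = 0.0053) and 1 fit to all stages (0.67, adjusted p = 0.034). ATF5 rose by 1.60 ± 0.32 and 1.07 ± 0.29 and then fell by 1.53 ± 0.27 (adjusted p = 3.68e-05). The mean levels of ATF5 at 94 dpc (6.74) and of ATF3 at 1 dpn (6.91) lay below the array median of the stage. Such a gene can pass the filter through its higher stage alone. The ATF5 rise of period I and the ATF3 differences of periods I and II are therefore not read further. CEBPB, a partner of ATF4 and a hepatic factor in its own right, rose by 0.83 ± 0.23 in period I and 0.90 ± 0.11 in period III. PCK2, the mitochondrial enzyme of phosphoenolpyruvate synthesis, was the single gene of this list that rose in each period, as did 2.34% of all probe-sets, by 0.46, 0.75 and 0.54, although further PCK2 probe-sets were called in the opposite direction in period II. EIF2S1, the alpha subunit of eIF2, fell by 1.02 ± 0.11 (adjusted p = 1.18e-09) in period II, and IMPACT, an inhibitor of GCN2, by 1.12 ± 0.13 (adjusted p = 1.38e-08). With the actin ratio as a covariate the calls of DDIT3 in period II (1.48, adjusted p = 0.077), of ATF3 in period I (-0.83, adjusted p = 0.13) and of ATF5 in period I (0.80, adjusted p = 0.063) were lost.

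The cytosolic tRNA synthetases, which load amino acids on tRNA, were lower together in the period in which ASNS had its large difference. In period II 13 of the 15 fell and 0 rose, while 39.0% of all probe-sets fell, and their median difference was -0.56 (-0.24 with 7 falls under median centring). In period I 2 rose and 5 fell (6 and 3 under median centring), while 23.9% of all probe-sets rose and 41.1% fell. In period III 0 rose and 7 fell (1 and 4 under median centring), while 15.5% of all rose and 24.1% fell. The synthetase medians in these 2 periods were -0.02 and -0.25, against -0.15 and -0.04 for all. The shares are those of the main scaling, and under median centring the median of all probe-sets was 0.02, 0.21 and 0.02 in periods I, II and III. The largest falls of period II were those of DARS (1.69 ± 0.18, adjusted p = 1.75e-09), EPRS (1.62 ± 0.14, adjusted p = 2.96e-11), NARS (1.29 ± 0.16, adjusted p = 3.99e-08) and RARS (1.22 ± 0.11, adjusted p = 3.91e-11), which charge aspartate, glutamate and proline, asparagine, and arginine. EPRS and RARS were separated without overlap. NARS, which uses the product of ASNS, thus fell in period II, with -0.28 ± 0.14 in period I (called under quantile normalisation, adjusted p = 0.028, and without the array of each stage least like its stage mates, adjusted p = 0.029) and -0.25 ± 0.13 in period III. With the actin ratio as a covariate DARS was not called (adjusted p = 0.077) and 5 of the 15 were called in period II, as were 23.7% of all probe-sets in place of 67.5%.

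Amino acid transporters had 9, 10 and 12 genes tested in periods I, II and III. In period I 4 rose and 3 fell, in period II 1 rose and 6 fell (4 and 5 under median centring, 2 and 5 under quantile normalisation), and in period III 3 rose and 5 fell. The shares of all probe-sets that rose and fell were 23.9% and 41.1%, 28.5% and 39.0%, and 15.5% and 24.1%. SLC3A2, the heavy chain of several amino acid exchangers, fell by 1.08 ± 0.13 (adjusted p = 1.44e-08) in period II without overlap, between rises of 0.34 ± 0.13 and 0.33 ± 0.09. With the actin ratio as a covariate its calls of period I (adjusted p = 0.19) and period II (adjusted p = 0.098) were lost. SLC1A4, a carrier of neutral amino acids, fell in each period, by 0.97 ± 0.12, 0.60 ± 0.12 and 0.65 ± 0.09, though not in period II with the actin ratio as a covariate (adjusted p = 0.53). SLC7A1, the carrier of cationic amino acids, fell by 1.15 ± 0.15 (adjusted p = 7.39e-08) in period I and 0.85 ± 0.13 (adjusted p = 2.37e-06) in period III, and stood at 0.32 ± 0.16 in period II, where 3 alternatives called a rise (adjusted p between 0.00029 and 0.042). SLC3A1 and SLC38A1, among the 3 rises of period III, passed the filter only through their level at 188 dpn, so their rises are not read further. The same holds for SLC1A2, the 1 rise of period II, which passed only through its level at 28 dpn.

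**Figure D3:**
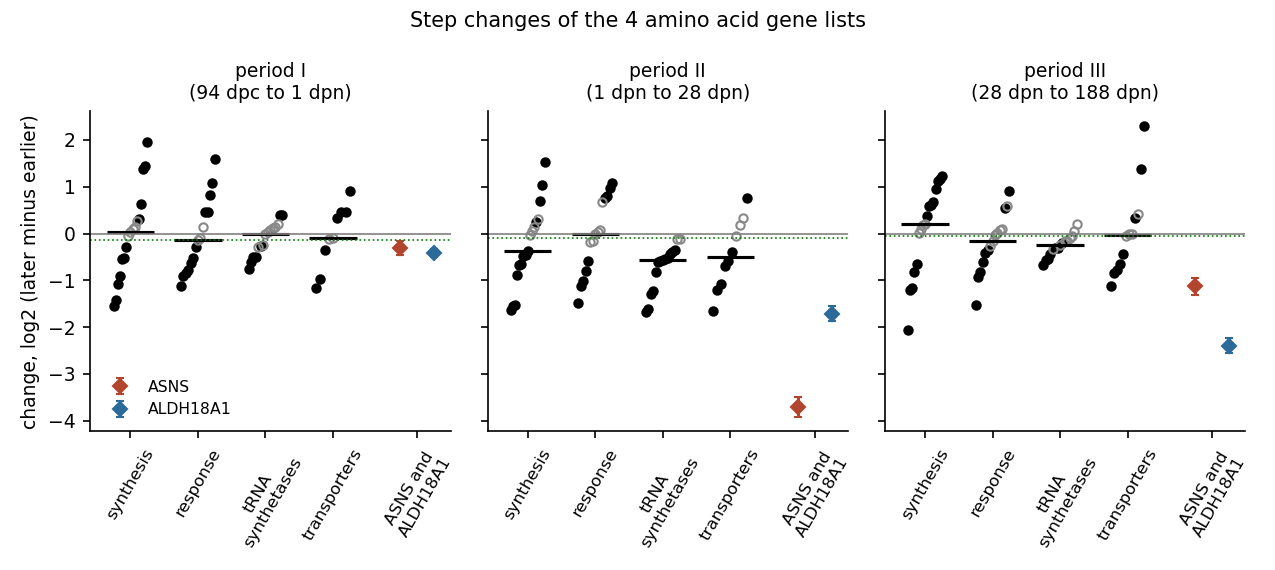
Log2 difference, later minus earlier stage, on the vertical axis for the genes of amino acid synthesis, amino acid response, tRNA synthetases and transporters in periods I, II and III, with ASNS (red) and ALDH18A1 (blue) and their SE on the right. Filled points were called by limma, open points were not, horizontal bars are list medians and the dotted line is the median of all probe-sets. In period II all called tRNA synthetases lie below 0 with a median of -0.56, and ASNS at -3.71 lies below every gene of the 4 lists.

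Within a stage ASNS varied together with several genes of the amino acid lists. The 12 genes with the highest pooled r with ASNS among 5491 named genes were SARS (0.59), FUT1 (0.58), CDKN1A (0.54), SLC7A1 (0.54), SERPINA7 (0.51), SP1 (0.51), ATF4 (0.49), MTHFD1L (0.48), DDIT3 (0.47), FABP4 (0.47), TP53BP2 (0.45) and AARS (0.45). Of these 12, 6 belonged to the 4 amino acid lists (SARS, SLC7A1, ATF4, MTHFD1L, DDIT3 and AARS), as did 59 of the 5491 genes. The rule used this variation and the lists were chosen with earlier results known, so nothing is read from these counts. Among all 13843 probe-sets 0.0650% reached a pooled r of 0.5 with ASNS. Named genes outside the lists were a fucosyltransferase (FUT1), the cell cycle inhibitor p21 (CDKN1A), the thyroxine-binding globulin (SERPINA7), a transcription factor (SP1), a fatty acid binding protein (FABP4) and a p53-binding protein (TP53BP2). Of these, SP1 with a mean of 5.50 at 188 dpn and FABP4 with 5.33 in fetuses and 6.07 in newborns were not above the highest Tag control mean of the stage (5.84, 5.86 and 6.29). High r was not particular to the amino acid lists. The 8 hepatocyte markers had r with ASNS of 0.53 to 0.63 in fetuses and 0.42 to 0.82 in newborns. At 28 dpn they had -0.43 to -0.25, and at 188 dpn -0.19 to -0.02.

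SARS, the seryl-tRNA synthetase, was nearest to ASNS, with r of 0.70 (rho 0.70, n = 15) in fetuses, 0.79 (rho 0.81, n = 15) in newborns and 0.75 (rho 0.78, n = 14) at 28 dpn, and -0.23 (rho -0.05, n = 16) at 188 dpn. Its own mean level was 11.52, 11.63, 11.25 and 11.18 in the order of the stages, and the fall of SARS by 0.38 ± 0.10 in period II was lost under median centring (adjusted p = 0.49) and with the actin ratio as a covariate (adjusted p = 0.74). ATF4 had r of 0.51 in fetuses, 0.88 in newborns, 0.37 at 28 dpn and -0.17 at 188 dpn. In newborns ATF4 and ASNS thus lay close to a line, at a mean ATF4 level of 12.52 against 12.80 in fetuses. DDIT3 had r of 0.33, 0.71, 0.46 and 0.12, AARS of 0.55, 0.68, 0.49 and -0.23, and SLC7A1 of 0.59, 0.59, 0.72 and 0.36. GARS, the glycyl-tRNA synthetase, was high at the earlier stages too, with 0.64, 0.50 and 0.74, and -0.10 at 188 dpn.

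The relation of these genes with ASNS was near 0 at 188 dpn. Over the 12 genes the median r was 0.46 in fetuses, 0.71 in newborns, 0.61 at 28 dpn and -0.08 at 188 dpn, and the number at 0.5 or more was 5, 12, 9 and 0. Of all probe-sets 6.54%, 7.63%, 11.1% and 2.18% reached 0.5 with ASNS at these stages, and 0.0939% did so at each of the first 3. The 12 genes were picked on the pooled value, to which stages with a wider ASNS spread contribute more, and the ASNS spread was smallest at 188 dpn. Without the 28 dpn animals their pooled r was between 0.36 and 0.60.

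**Figure D4:**
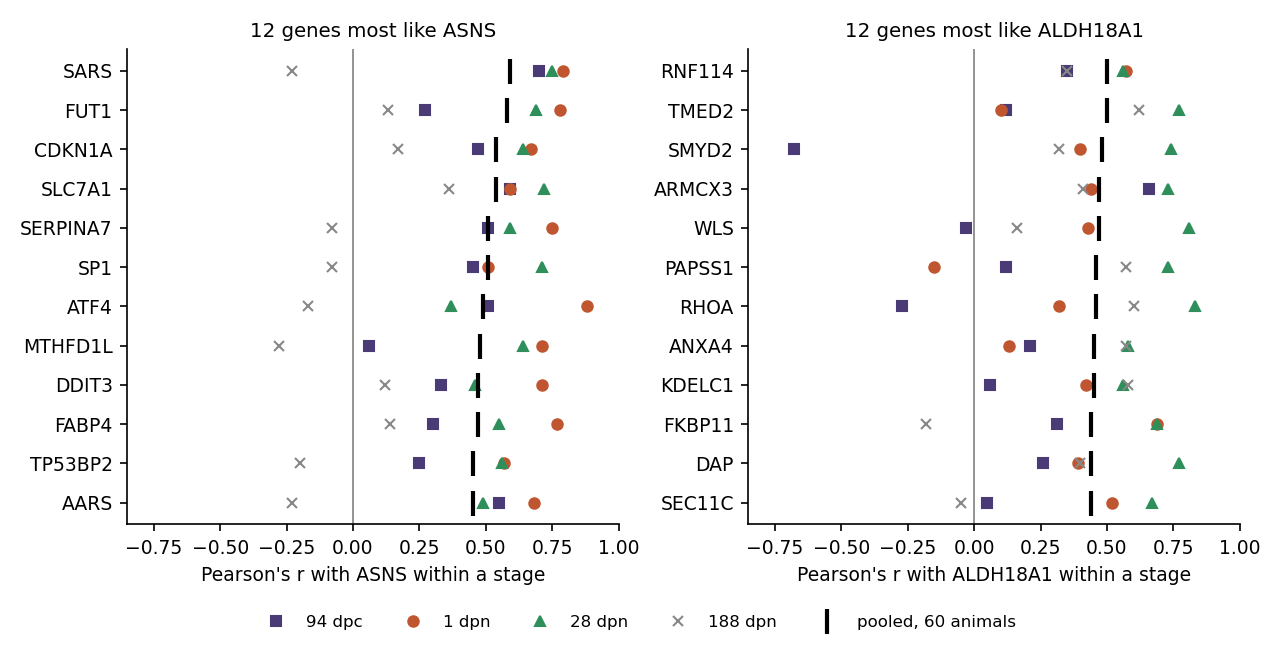
Pearson's r within a stage on the horizontal axis between ASNS (left) or ALDH18A1 (right) and the 12 genes with the highest pooled r, with a symbol for each stage and a bar for the pooled value over 60 animals. The 188 dpn crosses of ASNS lie between -0.28 and 0.36 and overlap some symbols of 94 dpc, which start at 0.06, while those of 1 and 28 dpn lie at 0.37 or more, and for ALDH18A1 all 12 genes lie at 0.56 or more at 28 dpn and scatter in fetuses.

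Seen by list, 14 of the 15 tRNA synthetases had a positive pooled r with ASNS (median 0.17, range -0.13 to 0.59), against a median of 0.03 over all probe-sets. At 28 dpn their median was 0.47 and 6 of the 15 reached 0.5, while at 188 dpn the median was 0.03 and 0 did. Over all probe-sets the median r with ASNS was 0.08 at 28 dpn and 0.03 at 188 dpn, and 11.1% and 2.18% reached 0.5. Of the 15 response genes 10 were positive, with a median of 0.15 that was 0.04 with equal weight for each stage. Of these, 6 were above 0 in fetuses (median -0.06) and 7 at 188 dpn (median -0.01). Of the synthesis genes 4 of 17 were above 0 with a median of -0.17, which was -0.08 without the 28 dpn animals, and 12 of 17 were above 0 in fetuses (median 0.08). The transporters were on neither side (6 of 12). In fetuses the median over all probe-sets was -0.01. The rule used this variation, so nothing is read from these counts. PYCR1 had r of 0.66, 0.59, 0.52 and -0.10 with ASNS over the stages, and a pooled r of 0.29. PHGDH had 0.60 in fetuses and -0.53 at 28 dpn, and PSPH had 0.62 in fetuses and -0.71 in newborns, so that the serine enzymes did not keep a sign with ASNS. The lowest pooled r with ASNS were those of PTGR1 (-0.56), a reductase of prostaglandins and leukotrienes, MUL1 (-0.53), a mitochondrial ubiquitin ligase, LOC780435 (-0.51) and FAH (-0.51), the last enzyme of tyrosine breakdown. Of all probe-sets 0.0506% had a pooled r of -0.5 or lower with ASNS, and 0.0144% with ALDH18A1.

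**Figure D5:**
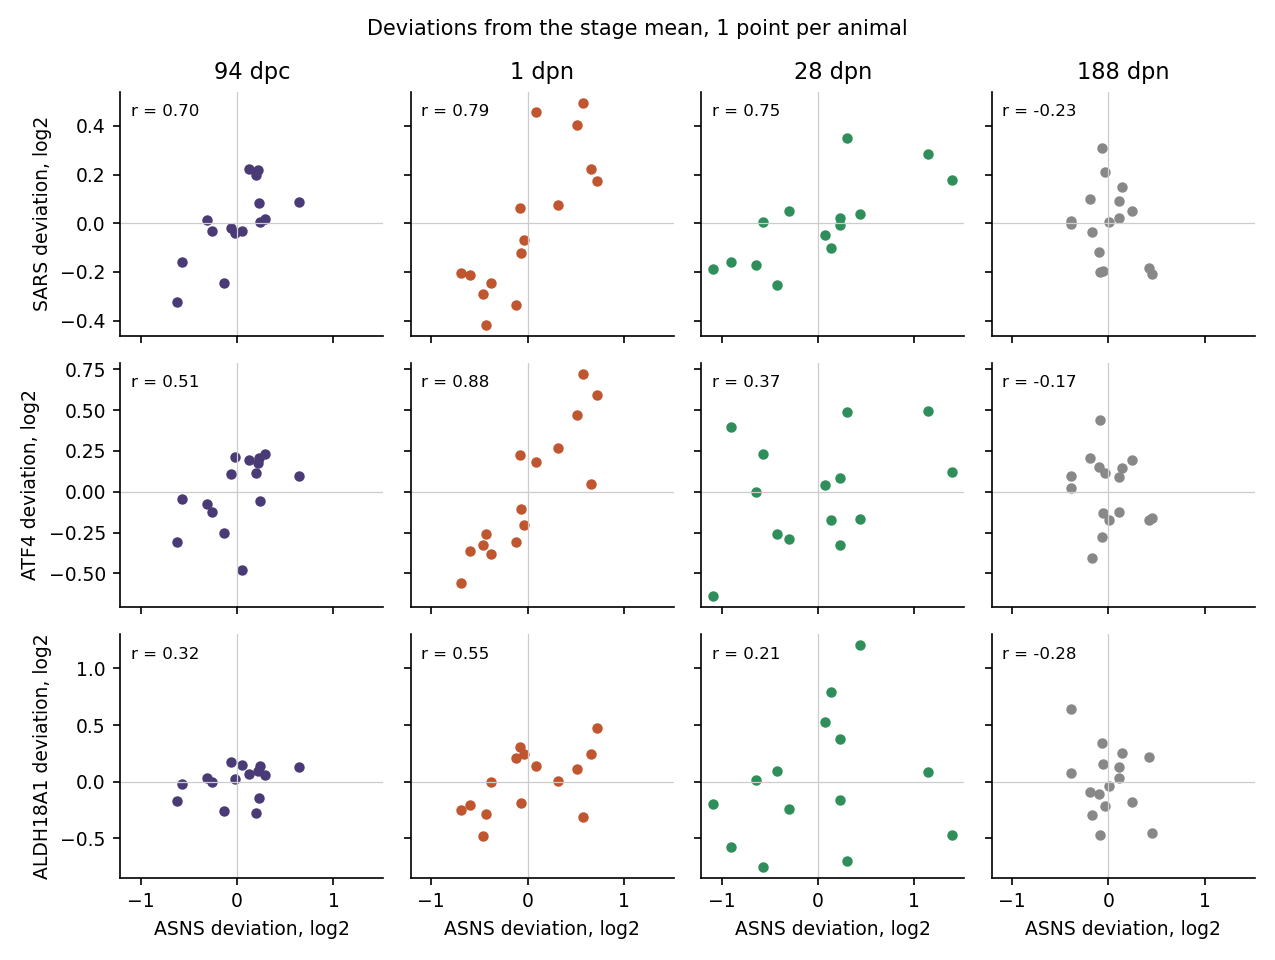
Deviations from the stage mean in log2 units, 1 point per animal, of ASNS on the horizontal axis against SARS (top), ATF4 (middle) and ALDH18A1 (bottom) on the vertical axis, by stage in columns with Pearson's r. ATF4 and ASNS lie along a line in newborns (r = 0.88), SARS and ASNS at the first 3 stages, and none of the 3 genes at 188 dpn, where ASNS spans a narrow range.

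ALDH18A1 had other neighbours. Its 12 genes with the highest pooled r were RNF114 (0.50), TMED2 (0.50), SMYD2 (0.48), ARMCX3 (0.47), WLS (0.47), PAPSS1 (0.46), RHOA (0.46), ANXA4 (0.45), KDELC1 (0.45), FKBP11 (0.44), DAP (0.44) and SEC11C (0.44). Of them 0 belonged to the 4 amino acid lists, which held 59 of the 5491 named genes. TMED2, a cargo receptor of early secretory vesicles, WLS, which escorts Wnt proteins to the surface, FKBP11, a folding enzyme of the endoplasmic reticulum, and SEC11C, a signal peptidase subunit, act in the secretory route. Of all 13843 probe-sets 0.00722% reached a pooled r of 0.5 with ALDH18A1, fewer than with ASNS. Over the 12 genes the median r was 0.12 in fetuses, 0.41 in newborns, 0.73 at 28 dpn and 0.41 at 188 dpn, and 1, 3, 12 and 5 of them reached 0.5. Of all probe-sets 3.08%, 5.71%, 4.79% and 2.24% did so at these stages. The r of these 12 genes was largest in the 28 dpn piglets, and without those animals their pooled r was between 0.19 and 0.46. They were picked on the pooled value, to which stages with a wider ALDH18A1 spread contribute more. This spread was widest at 28 dpn (SD 0.57), so the high r there follows in part from the choice.

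Across the amino acid lists the r of ALDH18A1 centred near 0. Its median pooled r was -0.04 with the synthesis genes, -0.02 with the response genes, 0.07 with the tRNA synthetases and -0.02 with the transporters, against 0.01 over all probe-sets. ATF4 had a pooled r of -0.07 with ALDH18A1 and 0.49 with ASNS, and SARS had 0.11 and 0.59. PYCR1 had 0.39, 0.26, 0.55 and 0.10 with ALDH18A1 over the stages. PSPH had 0.73 and GLUL 0.68 at 28 dpn, and PSAT1 -0.63. The lowest pooled r with ALDH18A1 were those of SULT1A3 (-0.48), a sulfotransferase, IFT57 (-0.47), a protein of cilia, AMY2 (-0.45), an amylase, and MPDZ (-0.44), a scaffold protein. AMY2 was negative at each stage, with -0.49, -0.62, -0.39 and -0.54.

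Some measures of the sample moved with the pair within a stage. All 8 hepatocyte markers were above the array median at every stage, as the tissue label requires, with a summed intensity of 349120 to 649070 in fetuses, 373090 to 584710 in newborns, 281280 to 420050 at 28 dpn and 321010 to 528480 at 188 dpn. This sum had an r with ASNS of 0.59 in fetuses, 0.72 in newborns, -0.40 at 28 dpn and -0.10 at 188 dpn, and with ALDH18A1 of 0.07, 0.19, 0.01 and -0.53. At 28 dpn the summed markers of stellate and endothelial cells had an r of 0.54 with ALDH18A1, and the summed genes of cell division 0.49. The macrophage sum had 0.49 with ALDH18A1 in newborns and -0.26, -0.06 and -0.09 in fetuses, at 28 dpn and at 188 dpn. With ASNS the cell division sum had -0.35, -0.29, -0.10 and -0.29 in the order of the stages. The stellate and endothelial sum had -0.10, 0.36, 0.21 and -0.36 with ASNS. Of the 6 markers of exocrine pancreas on the array, 5 were below the array median at every stage and the other was AMY2. Their summed intensity was 10010 to 21077 in fetuses, 7471 to 23804 in newborns, 1523 to 6284 at 28 dpn and 1359.9 to 12663 at 188 dpn, and had an r with ALDH18A1 of -0.50, -0.62, -0.39 and -0.54. AMY2 alone had -0.49, -0.62, -0.39 and -0.54 and was named above as 1 of the 4 lowest r. The sum thus restates AMY2 and is no separate measure of pancreas. The array median had an r of 0.46 with ASNS at 28 dpn and -0.42 with ALDH18A1 in fetuses, and the actin ratio had between -0.30 and 0.09 with ASNS and between -0.35 and 0.33 with ALDH18A1. Between stages, all 4 erythroid markers on the array fell in period I with a median difference of -3.12, and 17 genes of cell division fell in 6, 13 and 17 cases in periods I, II and III, when 41.1%, 39.0% and 24.1% of all probe-sets fell. At 188 dpn 11 of the 18 cell division genes on the array were below the array median, against 1 at 28 dpn. Such genes can pass the filter of period III through 28 dpn alone, so their count there is not read further. Of the 8 hepatocyte markers 7 fell and 0 rose in period II with a median of -0.60, when 39.0% of all probe-sets fell. Another TF probe-set was called in the opposite direction there. All 8 rose in period III with a median of 0.31, when 15.5% of all probe-sets rose. Of 6 macrophage markers 4 rose and 1 fell in period I, 3 rose and 1 fell in period II, and 0 rose and 5 fell in period III. The 3 bile duct markers tested fell in 0, 1 and 3 cases and rose in 0. Of 7, 7 and 6 stellate and endothelial markers tested, 1, 3 and 0 rose and 3, 2 and 3 fell. The shares of all probe-sets that rose were 23.9%, 28.5% and 15.5%. The part of these in the results was not tested.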

How the data were processed

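Liver RNA of 60 AP offspring was hybridised to Affymetrix porcine arrays, 1 array per animal. The authors deposited 1 linear signal intensity per probe-set and array (GCOS 1.1.1 per the submitters' processing notes). The mean trimmed by 2% at each end was 500.13 to 500.22 on all arrays, so the intensities had been scaled to a common target. The array medians averaged 169.8, 149.1, 116.8 and 111.3 in the order of the stages. The study's own tests used other, log-scale values and a model with litter, sex and weight. The labels give none of these, so animals were treated as independent, and p-values may be too small where sibs share a litter. The highest correlation between 2 arrays was 0.973, so no array was counted as deposited more than 1 time. The number of arrays limits the precision.

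Intensities were raised by 16 and taken to log2. Of 24123 probe-sets 124 controls were left out. The probe annotation paired 10069 probe-sets with a single gene, 198 with several and 13732 with none. RefSeq (Sscrofa11.1) held 9961 of the single genes' IDs and changed 0 symbols. The probe-set with the highest mean stood for a gene. A probe-set was tested if 50% or more of the animals in 1 or both stages of a period were above their array median. The 2 stages of each period were fitted with limma 3.58.1 (R 4.3.3), two-sided, checked on simulated data. Relations within stages are Pearson's r of deviations from the stage mean (numpy 2.4.6, pandas 2.3.3). The genes named are the pair, a fixed set of pathway genes, up to 4 called genes per direction, list and period with the largest differences, and the 12 highest and 4 lowest pooled r with each gene. A few further list genes were named after their values were seen (PYCR3, ASRGL1, GOT2, GARS and, within stages, GLUL). The pair, the lists and the tests were chosen with earlier results of these data known. Alternatives were other scalings, pseudocounts of 1 and 64, no filter, 1 fit to all stages, any probe-set of a gene, the actin ratio as a covariate and leaving out arrays or stages.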

Additional observations from a re-analysis of the deposited data

How the results depend on the processing

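The differences of ASNS and ALDH18A1 kept their sign in each period under the 6 alternatives tried. They lay between -0.46 and -0.13, -3.74 and -3.37, and -1.21 and -0.99 for ASNS in periods I, II and III, and between -0.61 and -0.25, -2.08 and -1.40, and -2.45 and -2.19 for ALDH18A1. The actin ratio as a covariate for the pair, the equal weighting of stages and the leaving out of 28 or 188 dpn were added after the data were seen. The pooled r of ASNS with ALDH18A1 lay between 0.21 and 0.30 in its 11 alternatives.

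Counts of called list genes depended on the actin ratio as a covariate, which differs between stages. In period II 3 synthesis genes (13 without it), 5 response genes (9), 5 tRNA synthetases (13) and 2 transporters (7) were then called, and in period I 3 transporters (7). Median centring left 7 tRNA synthetases called in period II. The median pooled r of synthesis genes with ALDH18A1 was 0.09 by Spearman's rho, against -0.04. Of 109 differences of named list genes, 71 kept their sign and their side of the threshold under all alternatives. Differences that turned were AARS in period I under quantile normalisation (-0.01, adjusted p = 0.95 by limma), in period II AARS under median centring (0.19, adjusted p = 0.13), ATF4 under median centring (0.15, adjusted p = 0.31) and, with the actin ratio, ATF4 (0.29, adjusted p = 0.57), MTHFD1L (0.38, adjusted p = 0.76) and MTHFD2 (-0.04, adjusted p = 0.95). None of these 6 was called under that alternative, MTHFD1L alone was called without it, and the cause was not tested. No paired analysis was possible because the labels carry neither litters nor replicate numbers shared between stages. With 14 to 16 animals a stage, replicates were left out only as the array of each stage least like its stage mates, not in turn.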
